A study of Mus musculus with 4 samples.

Results

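The genes described here are the mouse zinc-finger genes whose symbols run from Zfp900 upward to Zfp999. They were taken by name, as every symbol in the deposited gene list made of Zfp and a number in that range, with the paired genes Zfp955a and Zfp955b counted in. The rule found 63 genes among 32285 features, and the Zfp symbols below this range, Zfp1 to Zfp899, gave 328 genes for comparison. Transcripts were counted in single bone marrow cells of transplanted mice, sorted as CD45.2+ (a surface antigen that tells donor from host blood cells) 10 weeks after transplantation. Each of 4 groups gave 1 library. Kit+ cells came from a control, an Mll3/4 deleted and an Mll3/4SI group, and B220lo cells from a control group. Kit is a receptor of stem and progenitor cells, and B220 is a surface antigen of the B lineage. Mll3 and Mll4 (gene symbols Kmt2c and Kmt2d) are histone methyltransferases that act on enhancers. Strain, sex, Cre driver and number of mice are not given in the sources used here, nor is the meaning of SI. With 1 library in each group there is no replicate spread, so every difference below is a difference between libraries, no test was made, and the 95% intervals cover counting error only.

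Zfp genes of this kind encode proteins with rows of C2H2 zinc fingers, short domains that grip DNA bases one after another. Many mouse members also carry a KRAB domain, which recruits the corepressor TRIM28 and, through it, the H3K9 methyltransferase SETDB1 and heterochromatin proteins. This machinery is best known for silencing transposable elements. The genes lie in clusters that grew by duplication, and clusters can differ between mouse strains. Of the 63 genes, all had a coding sequence in the GENCODE M21 annotation, and 60 of the coding sequences held at least 3 finger motifs, with a median of 11 and at most 21. By position on GRCm38, 46 of the genes fell into 6 chromosomal groups, joined where neighbouring members were at most 1000000 bases apart. The chromosome 4 group held 16 members (4:145510759-147848366), the chromosome 2 group 10 (2:175372436-178078476), the larger chromosome 17 group 10 (17:21567008-22867134) and the chromosome 7 group 4 (7:42579783-43192109). A chromosome 8 group and a second chromosome 17 group held 3 each, and 17 members stood alone.

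Among members with a mean of at least 2 CPM over the libraries compared, the log2 ratios farthest from 0 over all kept Kit+ cells were those of Zfp981, in the chromosome 4 group, and Zfp976, in the chromosome 7 group. Zfp981 is a protein-coding gene at 4:146502027-146539395, plus strand, with 7 finger motifs in 445 residues. Zfp976 is a protein-coding gene at 7:42609526-42642588, minus strand, with 18 finger motifs in 636 residues. Their promoter windows are shown with those of members of the same chromosomal group that have similar windows and whose levels did not all differ in the same way. The windows hold the 250 bases before a RefSeq start of transcription on GRCm38.p6, and 53 of the 63 members had such an entry. For Zfp981 this is the start at 4:146514920, shared by 2 of its 3 annotated transcripts, and the window lies inside the gene because the remaining transcript starts at 4:146502027. For the chromosome 4 group these are the windows of Zfp981 (4:146514670-146514919, plus strand), Zfp987 (4:146097062-146097311, plus strand) and Zfp979 (4:147642509-147642758, minus strand). Capitals mark 12-base stretches found in all the windows of a set, and stretches that overlap or adjoin run together, so a longer run need not be unbroken in every window.
Zfp981: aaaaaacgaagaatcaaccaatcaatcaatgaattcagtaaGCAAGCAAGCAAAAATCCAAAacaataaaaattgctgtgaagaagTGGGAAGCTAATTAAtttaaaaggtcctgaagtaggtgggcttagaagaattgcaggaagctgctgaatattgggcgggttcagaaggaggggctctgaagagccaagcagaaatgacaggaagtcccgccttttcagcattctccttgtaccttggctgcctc
Zfp987: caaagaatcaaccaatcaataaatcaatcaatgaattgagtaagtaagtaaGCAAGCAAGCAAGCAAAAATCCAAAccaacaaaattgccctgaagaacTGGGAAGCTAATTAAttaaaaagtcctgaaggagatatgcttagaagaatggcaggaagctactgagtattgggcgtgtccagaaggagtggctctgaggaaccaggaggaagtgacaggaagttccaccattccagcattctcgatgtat
Zfp979: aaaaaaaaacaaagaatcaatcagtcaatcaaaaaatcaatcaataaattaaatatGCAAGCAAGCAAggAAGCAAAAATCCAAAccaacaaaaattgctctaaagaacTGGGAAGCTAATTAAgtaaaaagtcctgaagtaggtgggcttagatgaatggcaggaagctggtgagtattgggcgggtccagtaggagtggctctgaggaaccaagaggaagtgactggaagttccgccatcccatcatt
The Zfp987 window was 79.6% identical to that of Zfp981 and the Zfp979 window 78.4%. Over the 9 other members on chromosome 4 with an entry, identity to the Zfp981 window had a median of 78.4% and ran from 48.4% to 80.4%, against a median of 50.8% over 43 members on other chromosomes. For the chromosome 7 group the windows are those of Zfp976 (7:42642605-42642854), Zfp977 (7:42592546-42592795) and Zfp975 (7:42692719-42692968), all on the minus strand.
Zfp976: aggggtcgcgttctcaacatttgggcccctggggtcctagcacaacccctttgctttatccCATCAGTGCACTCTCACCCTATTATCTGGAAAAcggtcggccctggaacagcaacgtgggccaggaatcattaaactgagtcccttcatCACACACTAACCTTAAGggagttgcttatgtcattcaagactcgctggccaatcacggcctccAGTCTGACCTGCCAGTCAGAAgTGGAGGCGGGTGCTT
Zfp977: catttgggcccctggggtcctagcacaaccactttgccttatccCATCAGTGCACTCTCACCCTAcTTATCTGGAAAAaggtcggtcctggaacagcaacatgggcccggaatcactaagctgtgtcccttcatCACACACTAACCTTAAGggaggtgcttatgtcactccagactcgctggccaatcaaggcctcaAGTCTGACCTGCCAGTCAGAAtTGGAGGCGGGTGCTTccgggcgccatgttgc
Zfp975: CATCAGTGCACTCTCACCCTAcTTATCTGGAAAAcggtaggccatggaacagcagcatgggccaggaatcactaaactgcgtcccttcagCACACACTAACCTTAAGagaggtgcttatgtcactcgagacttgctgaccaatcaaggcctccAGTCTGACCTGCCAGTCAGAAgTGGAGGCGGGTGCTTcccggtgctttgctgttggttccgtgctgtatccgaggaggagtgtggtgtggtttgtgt
The Zfp977 window was 87.2% identical to that of Zfp976 and the Zfp975 window 70.0%. The closest was that of Zfp936, in the same group, at 87.6%. Over the 7 other members on chromosome 7 with an entry the median was 55.6% (52% to 87.6%), against 53.2% over 45 members on other chromosomes. The letters GGCGGG, read on either strand, were in 5 of the 6 windows shown and not in that of Zfp987. They were in 28 of 60 windows of members (46.7%) and in 32.5% of 32851 windows of all genes.

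Most members were expressed at low levels, given as CPM, the UMIs (counted molecules) of a gene scaled to counts per 1e+06 UMIs of the summed cells. As the mean of the 3 Kit+ libraries, 15 members stood at 10 CPM or more, 28 between 1 and 10 CPM and 20 under 1 CPM, and the median was 5.69 CPM. The highest was Zfp950 (19:61053840-61140840), at 36.9 CPM in control, 41.4 in deleted, 43.9 in SI and 50.4 in B220lo cells. Zfp934 (13:62479827-62571199) followed at 28.3, 32.0, 32.4 and 33.0 CPM in the same order. Both were within 1.5-fold of control in every other library. Zfp932 (5:109996521-110010411) had 20.2, 18.3, 20.1 and 17.6 CPM, and Zfp958 (8:4613167-4630231) had 14.1, 27.2, 16.0 and 16.8 CPM. Zfp932 was level across the libraries, while Zfp958 was highest in the deleted one. UMIs of this kit come from the 5′ ends of transcripts, so CPM was not divided by gene length, and the order of genes also depends on how much of each start is unique. Of the 20 members under 1 CPM, 14 shared more than 50% of the 50-base windows at their transcript starts with another annotated gene, with a median of 65.9%. Of the 43 members at 1 CPM or more, 10 did, with a median of 24.0%. Levels of members with many shared windows, low or not, are therefore uncertain where reads cannot be told apart between copies.

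**Figure D1:**
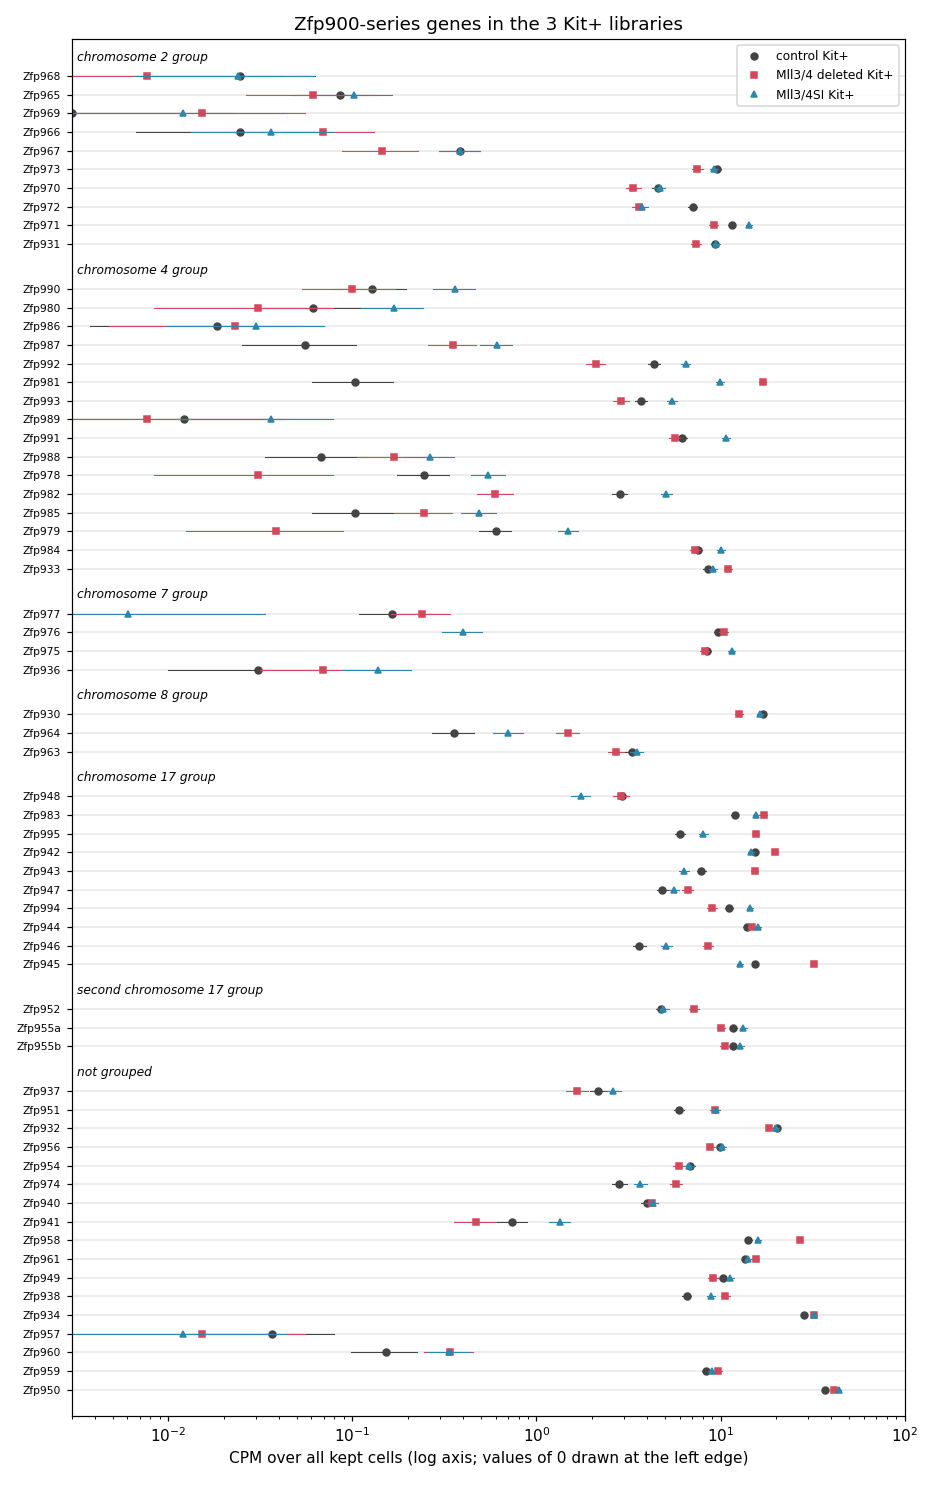
CPM of all 63 members over all kept cells of the 3 Kit+ libraries, on a log axis, in order along each chromosomal group; points are libraries, and lines are 95% exact Poisson intervals. Most members have their 3 points close together, while Zfp981 runs from 0.104 CPM in control to 16.9 in the deleted library and Zfp976 from 9.66 CPM in control to 0.397 in the SI library.

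The libraries differed in more than these genes. They held 12205 to 16861 barcodes and 85445426 to 166327773 UMIs, and the median of kept cells was 12199 UMIs in control, 6832 in deleted, 12349 in SI and 3354 in B220lo cells. Barcode sequences shared by kept cells of any 2 libraries numbered 205 to 332. Of the kept cells of the deleted Kit+ library, 12630 of 14915 had at least 10 UMIs of Cd79a, a B-cell receptor component, against 28 of 11891 in control and 19 of 12081 in SI. The 10 B-lineage markers summed to 13135 CPM in the deleted library, 93.3 in control and 66.0 in SI. Basophil and mast cell markers summed to 1250 CPM in SI and 285 in control. The Y-linked genes Ddx3y, Uty, Kdm5d and Eif2s3y summed to 0.0245 CPM in control, 149 in deleted, 0.0301 in SI and 0.518 in B220lo kept cells, so the sex of the cells differed with the deletion, and the 2 cannot be told apart. Kmt2c had 58.5, 51.6 and 62.5 CPM and Kmt2d 24.1, 19.95 and 20.7 CPM in control, deleted and SI Kit+ cells. These UMIs come from the 5′ ends of transcripts, and where the alleles are altered is not given in the sources used here, so they do not check the labels.

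Because the mix of cells differed so much, members were also compared within cells chosen by 1 transcript. Hlf (at least 1 UMI) encodes a transcription factor of stem cells, Elane (at least 10 UMIs) the neutrophil elastase of early granulocytes, and Car1 (at least 10 UMIs) a carbonic anhydrase of erythroid cells. These sets held 2844, 4884 and 2759 control cells, 218, 658 and 77 deleted cells, and 3502, 3700 and 1014 SI cells. Their median UMIs were 11422, 15118.5 and 19608 in control, 17091, 21157 and 18545 in deleted, and 12184, 16890.5 and 20385 in SI. All deleted sets stood above their library's median of 6832, while the control Hlf set was below its own, 12199. Without barcodes above 3 times their library's median UMIs, 133, 301 and 41 deleted cells and 2723, 4674 and 2508 control cells remained. Doublets were not called, so their part in these sets was not tested. The sets share cells, so they are not independent of each other. Of the Hlf cells, 1176 in control, 109 in deleted and 801 in SI also passed another marker threshold, that of Cd79a (10 UMIs) included. The count at the threshold was small for Elane (38 control cells had exactly 10 UMIs and 40 had 1 less) and large for Hlf, where 1716 control cells had exactly 1. Of the deleted cells, 47 in the Hlf, 175 in the Elane and 21 in the Car1 set also had at least 10 Cd79a UMIs. Their B-lineage markers summed to 2312, 2231 and 2315 CPM in the 3 sets, against 74.9, 123 and 26.7 CPM in control, so these sets are not free of B-lineage transcripts. Both Kit+ comparisons use the same control library, so they are not independent of each other.

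In the deleted library over all kept cells, 4 of the 41 members that passed the filter on low values (a mean of 2 CPM over the libraries compared) were at least 2-fold higher than in control (log2 ratio of 1 or more with 1 CPM added), and 0 were 2-fold lower. Over all 11792 genes that passed, 12.9% were higher and 9.72% lower, so the share of members is no larger than the background. The members' median log2 ratio was 0.07, against 0.15 for Zfp1 to Zfp899 and -0.00 for all genes, and 29 of the 41 lay within 0.5 of 0. The 4 were Zfp981, Zfp995, Zfp946 and Zfp945, and the last 3 lie in the larger chromosome 17 group. Just below the threshold were Zfp958 (log2 ratio 0.90) and Zfp943 (0.88), and the lowest member past the filter was Zfp972 (-0.80). When cells with 5 or more Cd79a UMIs were left out of both libraries, 1497 deleted cells remained, and 1 member, Zfp981, was still called. Zfp995 missed the call narrowly, with a log2 ratio of 0.984 with 1 CPM added and a CPM ratio of 2.14. Zfp946 and Zfp945 had log2 ratios of 0.729 and 0.404 there.

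In the SI library, 1 of 43 members past the filter was at least 2-fold higher than in control, Zfp981, and 1 was lower, Zfp976. Over all 11406 genes past the filter, 2.07% were higher and 0.964% lower. The members' median log2 ratio was 0.17, against 0.08 for Zfp1 to Zfp899 and 0.04 for all genes. Between the extremes, the remaining members ran from -0.77 (Zfp972) to 0.71 (Zfp991), and 36 of the 43 lay within 0.5 of 0. Without a filter, 49 of 63 members had a higher CPM in SI than in control (77.8%), as did 73.0% of Zfp1 to Zfp899 and 54.6% of all genes with a UMI.

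**Figure D2:**
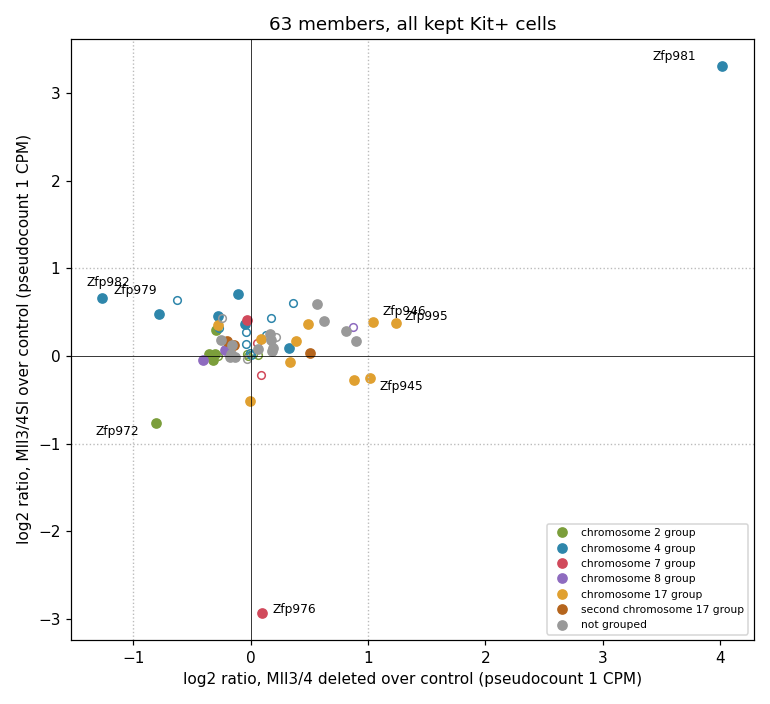
Log2 ratio of each member over control in the deleted (x axis) and SI (y axis) libraries, all kept cells, with 1 CPM added; filled points passed the filter on low values in at least 1 of the 2 comparisons, open points in neither, and dotted lines mark 2-fold. Zfp981 stands at 4.02 and 3.31, Zfp976 at 0.10 and -2.93, and all other members lie within 0.8 of 0 on the SI axis.

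Zfp981 was nearly silent in control Kit+ cells and present in both the deleted and SI Kit+ libraries. Over all kept cells it had 17 UMIs in control (0.104 CPM), 2201 in deleted (16.9 CPM), 1654 in SI (9.95 CPM) and 109 in B220lo cells (1.28 CPM). Deleted was 162-fold control (101 to 279) and SI 95.8-fold (59.6 to 165). With 1 CPM added to each level, the log2 ratios of Zfp981 were 4.02 and 3.31. In Hlf cells it had 0.176 CPM in control (7 UMIs), 12.9 in deleted (52 UMIs) and 10.2 in SI (499 UMIs). In Elane cells it had 0.110 CPM in control (9 UMIs), 13.9 in deleted (199 UMIs) and 13.2 in SI (857 UMIs). The control B220lo library did not share the low level of control Kit+ cells in these sets, with 9.96 CPM in its 60 Hlf cells (7 UMIs) and 26.2 CPM in its 102 Elane cells (49 UMIs), so the libraries labelled control differed from each other. The deleted and SI libraries were above control Kit+ cells in both sets, by 73.4-fold (33.2 to 192) and 57.7-fold (27.8 to 144) in Hlf cells and by 127-fold (65.6 to 282) and 120-fold (63.2 to 264) in Elane cells. In Car1 cells it had 0.175 CPM in control (10 UMIs), 6.46 in deleted (11 UMIs) and 2.18 in SI (47 UMIs), so the deleted and SI levels were below those of the other sets and the control level was not. The SI value in Car1 cells was 12.5-fold that of control (6.22 to 27.7) but under the filter on low values. With cells of at least 10 Cd79a UMIs left out of the sets, the deleted library kept 9.75 CPM in Hlf cells (27 UMIs) and 12.7 CPM in Elane cells (114 UMIs). In the 56 Car1 cells left, 1 UMI remained (0.858 CPM), which was not called, with a ratio to control of 4.91 (0.113 to 34.5). Most Zfp981 UMIs of deleted Car1 cells thus came from cells with at least 10 Cd79a UMIs. That 1 UMI cannot show whether the cells left differed from control.

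Counted by cell, 16 of 11891 control cells had a Zfp981 UMI (0.135%, exact binomial interval 0.0769% to 0.218%). In the deleted library 1924 of 14915 did (12.9%), in SI 1400 of 12081 (11.6%) and in B220lo 87 of 16329 (0.533%). After every cell was thinned to 3000 UMIs, leaving out 405, 1662, 311 and 6999 shallower cells, the shares were 0.0348% in control, 5.27% in deleted, 3.10% in SI and 0.257% in B220lo. The order was the same with and without thinning, and control was the lowest. At most 6 UMIs were found in 1 cell. Of the 50-base windows at its transcript starts, 24.1% matched another annotated gene.

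Zfp976 was expressed in control and deleted Kit+ cells and nearly silent in SI. It had 1579 UMIs in control (9.66 CPM), 1353 in deleted (10.4 CPM), 66 in SI (0.397 CPM) and 256 in B220lo (3.01 CPM). The SI level was 24.3-fold lower than control (ratio 0.0411, interval 0.0317 to 0.0526), and the log2 ratio with 1 CPM added was -2.93. The deleted level was 1.08-fold that of control (0.999 to 1.16). In Hlf cells the 3 Kit+ libraries had 11.9, 10.7 and 0.468 CPM, in Elane cells 8.02, 8.06 and 0.262 CPM, and in Car1 cells 9.69, 11.7 and 0.278 CPM, in the order control, deleted, SI. The SI log2 ratio was -3.13, -2.84 and -3.06 in the 3 sets, and the deleted library stayed within 0.26 of 0 in each. With a filter at a mean of 5 CPM, Zfp976 fell under the filter in the Elane and Car1 comparisons of SI and was no longer called there. In the control B220lo library it had 1 UMI in Hlf cells (1.42 CPM) and 0 in Elane cells, which allows up to 1.61 CPM (3 counts). The share of cells with a UMI was 11.98% in control, 8.21% in deleted, 0.530% in SI and 1.40% in B220lo. Thinned to 3000 UMIs it was 3.07%, 2.98%, 0.136% and 0.836%, and the intervals of control and deleted cells overlapped (2.77% to 3.41% and 2.70% to 3.28%).

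**Figure D3:**
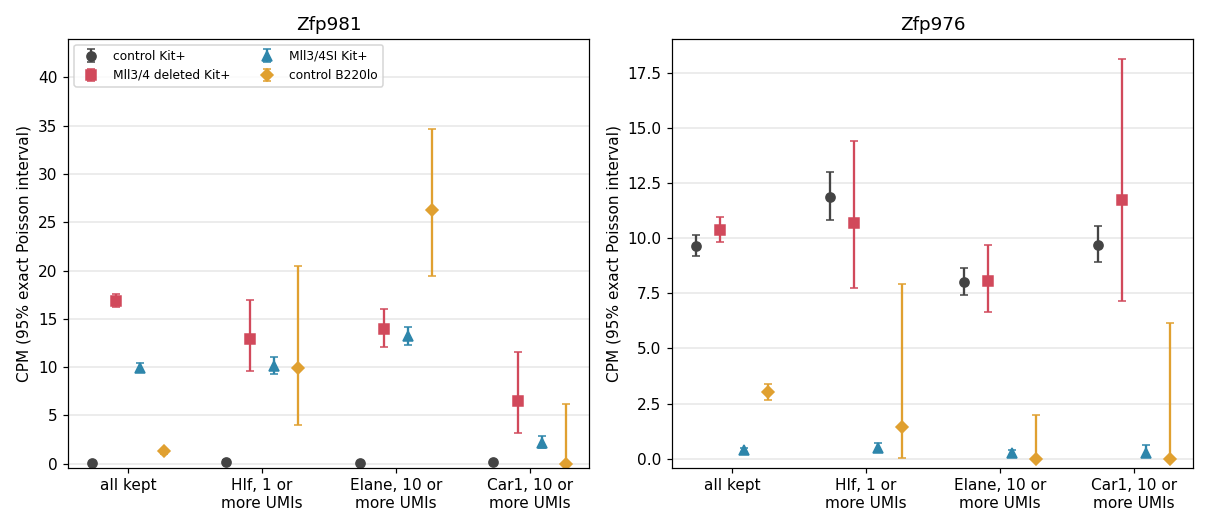
CPM of Zfp981 (left) and Zfp976 (right) by library in all kept cells and in the Hlf, Elane and Car1 sets; bars are 95% exact Poisson intervals. Control Kit+ cells sit near 0 for Zfp981 (0.104 to 0.176 CPM) and between 8.02 and 11.9 CPM for Zfp976, where SI cells sit between 0.262 and 0.468 CPM.

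Of the other members of the chromosome 7 group, Zfp977 was also lower in SI, and Zfp975 and Zfp936 were not. Zfp977 had 27 UMIs in control (0.165 CPM), 31 in deleted (0.238 CPM) and 1 in SI (0.00602 CPM), a ratio of SI to control of 0.0365 (0.000890 to 0.221). Zfp975 had 8.40 CPM in control, 8.20 in deleted and 11.5 in SI. Zfp936 had 5 UMIs in control (0.0306 CPM) and 23 in SI (0.138 CPM), a ratio of 4.53 (1.68 to 15.2). Zfp975 is the member whose coding sequence is most like that of Zfp976, at 78.8% identity. Of the 5 annotated genes on each side of Zfp976, 2 passed the filter in SI against control, Zfp975 (log2 ratio 0.41) and Zfp141 (-0.05, at 26.3 against 27.2 CPM). Neither was 2-fold lower, so the low SI level was not shared by every expressed gene nearby. Under the filter, Gm44997, which lies beyond Zfp977, was lower in SI as well. It had 0.116 CPM in control and 0.0120 in SI, a ratio of 0.104 (0.0117 to 0.429). Gm2381, on the Zfp975 side, went the other way, from 0 to 0.0542 CPM.

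In the chromosome 4 group, all 16 members had a higher CPM in SI than in control. The share of their start windows found in another annotated gene ran from 0.302% (Zfp933) to 100% (Zfp978 and Zfp979). It was 89.0% for Zfp993, 66.9% for Zfp992 and 46.3% for Zfp991. How far reads were counted for the wrong copy was not tested, so the 16 need not be separate readings. The group summed to 34.4 CPM in control, 47.3 in deleted and 60.7 in SI. Without Zfp981 the sums were 34.3, 30.4 and 50.8 CPM, so the deleted sum was above control through Zfp981 and below it without. For the 7 members past the filter, the median SI log2 ratio was 0.48. The same direction was found in 15 of 16 members in Hlf cells, 16 of 16 in Elane cells and 14 of 16 in Car1 cells. Of all genes with a UMI, 54.2%, 55.3% and 48.2% were higher in SI in these sets, and of Zfp1 to Zfp899 67.4%, 66.7% and 56.7%. The interval of the ratio included 1 for Zfp933, Zfp986 and Zfp989. Among the members past the filter other than Zfp981, the ratio of SI to control ran from 1.07 (Zfp933) to 1.78 (Zfp982). Among the 9 members under the filter it ran from 1.64 (Zfp986) to 11.04 (Zfp987), at no more than 1.49 CPM in SI. Zfp991 had 6.14 CPM in control and 10.7 in SI, 1.74-fold (1.61 to 1.88), and Zfp992 had 4.33 and 6.46 CPM, 1.49-fold (1.36 to 1.64). Zfp993 had 3.70 and 5.46 CPM, 1.48-fold (1.33 to 1.64). The direction was not particular to members. Of the 5 annotated genes on each side of Zfp981, the non-members Zfp600, Gm13166 and Rex2 were also higher in SI. Their ratios to control were 2.09 (1.69 to 2.60), 1.77 (1.58 to 1.98) and 2.54 (1.27 to 5.44). The intervals of the other non-members there included 1. Zfp600 and Rex2 share start windows with Zfp981, and Gm13166 shares some with Zfp991 and Zfp993. In deleted, the ratios of Zfp600, Gm13166 and Rex2 were 0.0876, 0.793 and 0.105. Only Gm13166 of these passed the filter. In the deleted library 6 of the 16 were higher than in control, against 53.3% of all genes with a UMI and 63.75% of Zfp1 to Zfp899, and some members stood far below it. These were singled out after their values were seen. Zfp992, which passed the filter, had 2.10 CPM in deleted against 4.33 in control. Its CPM ratio was 0.484 (0.419 to 0.557), and its log2 ratio with 1 CPM added was -0.78, so it was not called. In Hlf, Elane and Car1 cells Zfp992 had 3.97, 3.64 and 2.35 CPM in deleted, against 5.25, 4.13 and 3.41 in control. Zfp982 had 2.84 CPM in control, 0.599 in deleted, 5.06 in SI and 0.612 in B220lo, so it was low in both libraries rich in B-lineage cells. In Hlf cells it had 3.37, 3.23 and 6.10 CPM in control, deleted and SI, with a ratio of deleted to control of 0.959 (0.498 to 1.70). In Elane cells it had 2.31, 1.19 and 3.81 CPM, and deleted was below control (ratio 0.515, 0.294 to 0.846). In Car1 cells the deleted library had 2 UMIs (1.17 CPM, against 2.55 in control), with a ratio of 0.46 (0.0552 to 1.69). Zfp979 had 0.599, 0.0384, 1.49 and 0.0824 CPM in the 4 libraries, with all of its start windows shared with other genes. Zfp987, whose promoter window is shown above, had 0.0550 CPM in control (9 UMIs), 0.353 in deleted (46 UMIs) and 0.608 in SI (101 UMIs), 6.41-fold (3.10 to 14.9) and 11.04-fold (5.59 to 24.9) above control. Like Zfp981 it was higher in both, but at a level under 1 CPM.

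**Figure D4:**
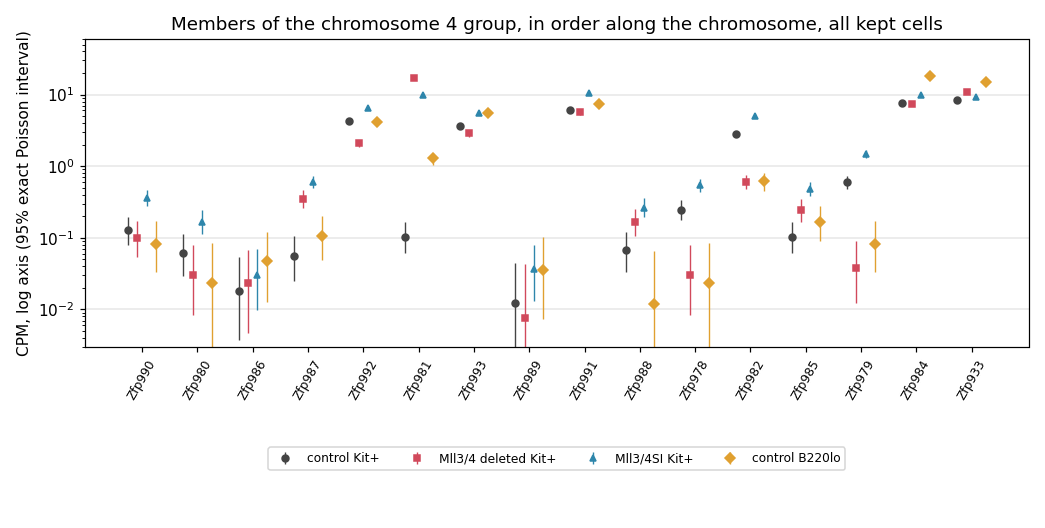
CPM of the 16 members of the chromosome 4 group in all 4 libraries, all kept cells, in order along the chromosome, on a log axis with 95% exact Poisson intervals; intervals that reach 0 end at the lower edge. SI lies above control for every member, and Zfp981 shows the widest gap, from 0.104 CPM in control to 9.95 in SI and 16.9 in the deleted library.

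The larger chromosome 17 group held 3 of the 4 members called higher in the deleted library, 3 of its 10 members against 12.9% of all genes and 9.40% of Zfp1 to Zfp899. Zfp945 (17:22846697-22867134) had 15.4 CPM in control, 32.2 in deleted, 12.7 in SI and 22.6 in B220lo, and deleted was 2.09-fold control (1.99 to 2.20). Zfp995 (17:21879570-21909926) had 6.01, 15.5, 8.06 and 10.5 CPM, 2.58-fold (2.39 to 2.78). Zfp946 (17:22424222-22456689) had 3.63, 8.55, 5.08 and 7.92 CPM, 2.36-fold (2.13 to 2.61). All 3 were also higher in the control B220lo library than in control Kit+ cells. The group was singled out after these calls were seen. Zfp genes near these 3 that are not members were higher in deleted too, without passing 2-fold. The ratios were 1.71 for Zfp758, 1.69 for Zfp820, 1.47 for Zfp229, 1.29 for Zfp40 and 1.17 for Zfp760. Gm7072, a non-member there, was not higher (0.976, 0.919 to 1.04). Of the 10 members of the group, 8 were higher in deleted than in control, with a median log2 ratio of 0.44 and sums of 142 and 92.9 CPM. Of all genes with a UMI 53.3% were higher in deleted, and of Zfp1 to Zfp899 63.75%. Within the marker-chosen cells the group's median was smaller. In the Hlf, Elane and Car1 sets 6, 8 and 9 of the 10 members were higher in deleted. Of all genes with a UMI, 44.5%, 49.8% and 40.3% were higher there. The median was 0.02 in Hlf, 0.17 in Elane and 0.37 in Car1 cells, and 0 of the 10 were past 2-fold in any of these sets. For Zfp945 the log2 ratio went from 1.02 over all kept cells to 0.20, 0.16 and -0.09 in the 3 sets. For Zfp995 it went from 1.23 to 0.65, 0.55 and 0.65, and for Zfp946 from 1.05 to 0.77, 0.43 and 0.50. In the SI library the group's median was 0.18, with 0 past 2-fold.

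**Figure D5:**
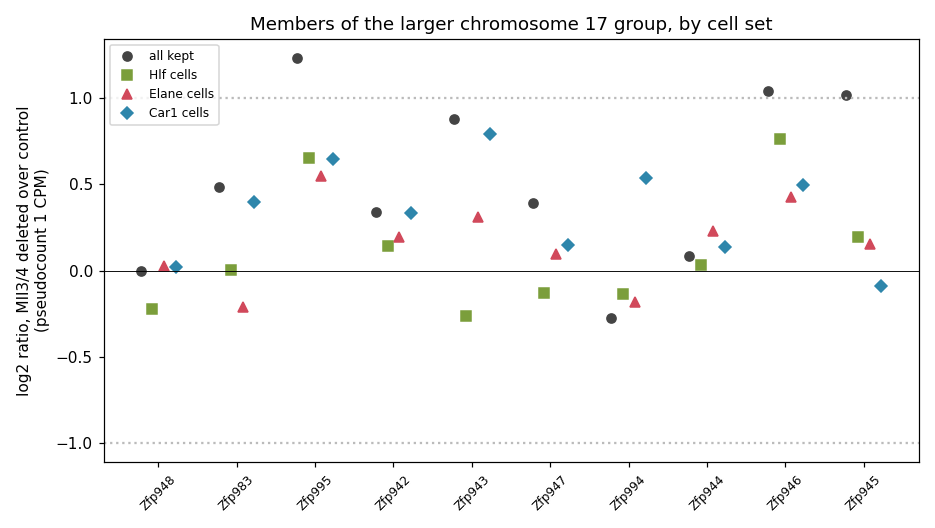
Log2 ratio of deleted over control, with 1 CPM added, for the 10 members of the larger chromosome 17 group, over all kept cells and in the Hlf, Elane and Car1 sets; dotted lines mark 2-fold. Zfp995, Zfp946 and Zfp945 pass 2-fold over all kept cells (1.23, 1.05 and 1.02), and 0 of the 10 members pass it in the marker-chosen sets.

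Across the marker-chosen sets, few members passed 2-fold. In Hlf cells 1 member was higher and 0 lower in deleted (background 3.68% and 2.63%), and 1 was higher and 1 lower in SI (1.48% and 1.13%). In Elane cells 1 was higher and 0 lower in deleted (3.59% and 2.11%), and 1 was higher and 1 lower in SI (1.27% and 0.835%). In Car1 cells 1 was higher and 1 lower in deleted (4.7% and 3.26%), and 0 were higher and 1 lower in SI (0.881% and 0.473%). The higher member was Zfp981 and the lower one in SI was Zfp976 in each case. The lower one in deleted Car1 cells was Zfp972, on 5 UMIs (2.93 against 7.09 CPM, ratio 0.414, interval 0.134 to 0.974). Zfp972, in the chromosome 2 group, was also below control in both the deleted and SI libraries over all kept cells, at 7.04 CPM in control, 3.61 in deleted, 3.73 in SI and 6.18 in B220lo, without passing 2-fold. All 5 members of that group that passed the filter were below control in the deleted library over all kept cells, with a median log2 ratio of -0.32, as were 5915 of all 11792 genes and 94 of 266 of Zfp1 to Zfp899. In the deleted Hlf, Elane and Car1 cells 3, 4 and 4 of the 5 were below control, with medians of -0.10, -0.07 and -0.32. The median over all kept cells was 0.02 in SI.

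B-lineage cells were compared between Cd79a-bearing cells (at least 10 UMIs) of the deleted Kit+ library (12630 cells) and of the control B220lo library (7723 cells). The control B220lo cells were not used to choose members, but the deleted cells are most of the 14915 described above, with 1935 of their 2201 Zfp981 UMIs, so the deleted values are not independent of those already given. Sort, genotype and the sex of the cells differ together here, and cannot be told apart. The 4 Y-linked genes summed to 144 CPM in these deleted cells and 0.477 in these control B220lo cells. Of 41 members past the filter, 2 were higher and 1 lower in deleted, against a background of 12.2% higher and 12% lower, and the members' median log2 ratio was -0.20. Zfp981 had 1935 UMIs in deleted cells (17.2 CPM) and 19 in control B220lo cells (0.412 CPM), 41.7-fold (26.6 to 69.4). Zfp976 had 9.94 and 3.21 CPM, 3.10-fold (2.61 to 3.70). The lower one was Zfp944, of the larger chromosome 17 group, at 14.1 and 32.1 CPM, 2.28-fold lower (ratio 0.438, 0.408 to 0.471). In that group 5 of 10 members were higher in deleted, with sums of 142 and 157 CPM, and 51.9% of all genes with a UMI and 48.6% of Zfp1 to Zfp899 were higher. Zfp945 (33.3 and 21.4 CPM, ratio 1.56) and Zfp995 (15.7 and 8.75 CPM, ratio 1.79) were above control B-lineage cells without passing 2-fold, and Zfp946 was close to them (8.78 and 7.80 CPM, ratio 1.13, 0.997 to 1.27). Zfp958 had 27.5 and 16.7 CPM, a ratio of 1.65.

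Among the genes that KRAB zinc-finger proteins work through, 1 passed 2-fold in either Kit+ comparison over all kept cells. The list held 27 genes of this machinery and its H3K9 and DNA methylation partners, and all 27 passed the filter. Over all kept cells 0 were 2-fold higher and 1 was lower in the deleted library (12.9% and 9.72% of all genes), with a median log2 ratio of 0.10. In SI 0 were higher and 0 lower (2.07% and 0.964% of all genes), with a median of 0.03. The lower one was Dnmt3b, a de novo DNA methyltransferase, at 29.6 CPM in control, 11.5 in deleted, 34.3 in SI and 9.87 in B220lo. Trim28, the corepressor, had 233, 346, 234 and 146 CPM, and Setdb1, the H3K9 methyltransferase it recruits, had 45.02, 38.5, 43.4 and 38.1 CPM. In the Hlf, Elane and Car1 sets 0 of the 27 passed 2-fold in the deleted or SI library. Between B-lineage cells of the deleted and B220lo libraries, Trim28 was higher (log2 ratio 1.18) and Uhrf1, a partner of maintenance DNA methylation, lower (-1.18), where 12.2% of all genes were higher and 12% lower.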

How the data were processed

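The libraries are 10x Genomics Chromium 5′ v2, per the labels. The deposited matrices hold UMI counts for each gene and barcode, not normalized, and per the file headers the authors' software was Cell Ranger 7.1.0. The genome build is mm10, per the submitters' processing notes. How reads that match several genes were treated is not given in the sources used here.

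Barcodes were kept with at least 1000 UMIs, 500 genes and a mitochondrial share of 10% or less. Doublets were not called, and ambient transcripts (those picked up from other cells) were not estimated. Their part in the shares of cells with a UMI and in the marker-chosen sets was not tested. Barcodes above 3 times the median UMIs were left out as an alternative. Counts were summed over cells and expressed as CPM, with exact Poisson intervals; CPM ratios have exact conditional binomial intervals (SciPy 1.17.1, NumPy 2.4.6, pandas 2.3.3). A gene was called at 2-fold with a pseudocount of 1 CPM and a mean of at least 2 CPM. The ratio step was tested on simulated data. Sequences were aligned with Biopython 1.88; positions are from GENCODE M21 (GRCm38), which held all 63 member identifiers, and promoters from RefSeq (GRCm38.p6).

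Members named one by one are those past 2-fold over all kept cells, the 5 highest, and those past 2-fold in all 3 marker-chosen sets; any other member was chosen after its values were seen. The members, lists and rules were chosen with earlier results of these data known. The immunoglobulin contig tables were not used here. Alternatives changed the cells kept, marker thresholds, filter, pseudocount, fold, scaling and weight of cells.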

Additional observations from a re-analysis of the deposited data

Results flagged for a closer look

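In the control B220lo library, which enters none of the Kit+ comparisons, cells with Elane or Hlf transcripts had Zfp981 levels above those of control Kit+ cells chosen the same way. The 102 cells with at least 10 Elane UMIs had 49 UMIs of Zfp981 (26.2 CPM), against 0.110 CPM in control Kit+ Elane cells, a ratio of 239 (116 to 554), and 29 of the 102 cells had a UMI (28.4%). The 60 cells with an Hlf UMI had 7 UMIs (9.96 CPM), against 0.176 CPM in control Kit+ Hlf cells, a ratio of 56.6 (16.95 to 189). The 17 cells with at least 10 Car1 UMIs had 0 UMIs, which allows up to 4.996 CPM (3 counts), against 0.175 CPM in control Kit+ Car1 cells. Both libraries are labelled control. In the same B220lo Elane cells Zfp976 had 0 UMIs, which allows up to 1.61 CPM (3 counts), against 8.02 CPM in control Kit+ Elane cells. The granulocyte markers of these cells summed to 49044 CPM, against 39230 in control Kit+ Elane cells, and the B-lineage markers to 976 CPM, against 123. Zfp950 differed less, at 47.7 and 38.7 CPM. The part of the cell mix in this was not tested.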

How the results depend on the processing

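No paired analysis was possible because each group has 1 library. All differences are between single libraries, the deleted Car1 set holds 77 cells, and members under 1 CPM rest on few UMIs. Of the counts of called members under the alternatives, 178 stayed within 1.5 times the main count and 44 did not. Log2 ratios of the 9 members named by rule were judged by the distance from the middle to an end of their counting interval. Medians over members were judged by the median of such distances over single members, which is not an interval of the median. Of these values, 1027 stayed within that distance and 59 did not. A changed filter or fold threshold cannot move a member's log2 ratio, so part of the 1027 was fixed in advance. The log2 ratios of Zfp981 and Zfp976 called in the main setting kept their sign wherever they passed the filter. Some of their calls were lost, as given below. Zfp981 ran from 3.71 to 6.38 in deleted and from 3.27 to 5.62 in SI over all kept cells, and Zfp976 in SI from -4.29 to -2.87. Centring on the median gene shifted ratios by at most 0.04. The causes of the changes below were not tested, beyond the fewer cells or genes that an alternative leaves.

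Without barcodes above 3 times the median UMIs, deleted calls were 2 higher in Hlf, 2 higher in Elane, and 5 higher and 0 lower in Car1 cells, and 4 lower against B220lo. With a mean of at least 5 CPM, 0 were lower in SI Elane and SI Car1 cells and 0 higher in deleted Car1 cells. With no filter, 1 was lower in deleted over all kept cells and 1 higher in SI Car1 cells. With a pseudocount of 0.1 CPM, 1 was lower in deleted over all kept cells, 2 were higher and 2 lower in deleted Car1 cells, and 2 were lower against B220lo. At 1.5-fold, deleted had 8 higher and 2 lower over all kept cells, 3 and 2 in Hlf, 5 and 3 in Car1, and 6 and 6 against B220lo; SI had 4 and 2 over all kept cells, 3 and 3 in Hlf, 4 and 2 in Elane, and 1 higher in Car1. With mitochondrial, ribosomal and receptor genes out of the total, deleted had 1 lower over all kept cells and 2 lower in Car1. With equal weight for each cell, deleted had 2 lower over all kept cells, 2 in Car1 and 2 against B220lo. Without cells of 5 or more Cd79a UMIs, deleted had 1 higher over all kept cells. With stricter markers, deleted had 3 higher and 2 lower in Hlf, 2 higher in Car1, and 0 lower against B220lo. With cells past 1 marker only, SI had 2 lower in Hlf, and deleted had 0 higher and 2 lower in Car1. With Cd79a-bearing cells left out of the marker sets, an alternative chosen after seeing the data, deleted had 0 higher and 3 lower in Car1.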
